A study of Homo sapiens with 6 samples.

Results

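The centromere, kinetochore and spindle checkpoint genes described here are 48 genes listed by symbol, of 30493 genes in a read count table from A549, an established line of human lung adenocarcinoma cells. All 48 were found by exact symbol, and all 48 were among the 17089 genes with enough counts to be tested. They were sorted by textbook role into 16 inner kinetochore genes, 12 outer kinetochore genes, 7 spindle checkpoint genes, 7 genes of the chromosomal passenger complex and centromeric cohesion, and 6 genes of anaphase onset and spindle assembly. The series held 6 poly(A) RNA-seq libraries of A549 cells. Its control group, titled NC, had 3 libraries whose genotype label reads control plasmid. Its other group, titled si_STAU1, had 3 libraries labelled STAU1 knockdown. The STAU1 protein binds double-stranded RNA and acts in mRNA localization, translation and decay. The labels give no reagent sequence and no time after transfection. They also do not state that replicates were cultured separately, and each p-value therefore reflects library-to-library spread that may be technical.

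The kinetochore is the protein structure that assembles on the centromere of each chromosome in mitosis and binds spindle microtubules. Its inner layer sits on nucleosomes that carry the histone variant CENP-A, its outer layer holds the microtubule-binding NDC80 complex, and checkpoint proteins recruited to unattached kinetochores keep the anaphase-promoting complex from being switched on by CDC20. Many of these genes are transcribed periodically, with their highest levels in G2 and mitosis, and in a bulk sample fewer cells in those phases and less RNA per cell cannot be told apart.

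Genes that peak in G2 and mitosis often carry a pair of promoter elements, the cell cycle genes homology region (CHR, searched here as TTTGAA or TTCGAA) and the CCAAT box (searched as CCAAT). Both strands were searched in the RefSeq promoter (GRCh38.p14), which runs from 250 bases before to 50 bases after the gene start, and 39 of the 48 members had an entry. CENPH, CENPL, CENPM, KNL1, BUB3, TTK, BIRC5, AURKA and TPX2 were not analysed in this way. The stretches below are those of the anaphase activator CDC20 (chr1:43358861-43358954, plus strand), separase ESPL1 (chr12:53268179-53268298, plus strand), the outer kinetochore adaptor ZWINT (chr10:56361276-56361379, minus strand), securin PTTG1 (chr5:160421735-160421821, plus strand), the inner kinetochore gene CENPX (chr17:82022919-82022998, minus strand) and the corona gene CENPF (chr1:214603075-214603194, plus strand). CDC20, ESPL1 and ZWINT were chosen to show both elements. PTTG1, CENPX and CENPF were chosen to show CCAAT boxes and no CHR in the printed bases. CENPF is still counted below with a CHR, because TTTGAA begins at base 41 after its gene start, beyond the printed bases. Each stretch is printed 5′ to 3′ in the direction of transcription. It starts 120 bases before the gene start and stops at that start or where an annotated exon begins. Capitals mark CHR and CCAAT letters on either strand.
CDC20: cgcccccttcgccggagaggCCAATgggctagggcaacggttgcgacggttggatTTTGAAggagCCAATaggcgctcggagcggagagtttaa
ESPL1: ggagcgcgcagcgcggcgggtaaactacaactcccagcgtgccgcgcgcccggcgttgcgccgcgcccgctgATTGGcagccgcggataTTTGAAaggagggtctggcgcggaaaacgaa
ZWINT: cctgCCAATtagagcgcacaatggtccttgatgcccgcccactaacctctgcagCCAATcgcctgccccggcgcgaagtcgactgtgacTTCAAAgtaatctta
PTTG1: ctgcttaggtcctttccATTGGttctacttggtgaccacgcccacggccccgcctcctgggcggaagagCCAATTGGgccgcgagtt
CENPX: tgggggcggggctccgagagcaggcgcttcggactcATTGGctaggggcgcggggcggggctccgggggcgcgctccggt
CENPF: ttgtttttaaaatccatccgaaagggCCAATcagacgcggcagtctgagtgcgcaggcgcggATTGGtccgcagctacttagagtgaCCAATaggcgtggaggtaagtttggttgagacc

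Windows of 30 bases show the CHR in further promoters, those of the mitotic kinase PLK1 (chr16:23678848-23678877, plus strand), the passenger subunit CDCA8 (chr1:37692481-37692510, plus strand), the centromeric histone CENPA (chr2:26786026-26786055, plus strand), the checkpoint gene BUB1B (chr15:40161034-40161063, plus strand), and 2 genes that were not lower, INCENP (chr11:62123981-62124010, plus strand) and ZW10 (chr11:113773899-113773928, minus strand). Counted from the RefSeq start, the CHR began 29 bases before it in PLK1, 23 in CDCA8 and BUB1B and 18 in CENPA. It began 10 bases before that start in INCENP and 224 in ZW10. These distances depend on the start used. By the GENCODE 29 gene bounds the windows of PLK1, CDCA8, CENPA, BUB1B and INCENP lie inside the gene. The ZW10 window lies before its gene, whose bound is at 113773811.
PLK1: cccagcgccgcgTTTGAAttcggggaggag
CDCA8: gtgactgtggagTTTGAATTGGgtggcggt
CENPA: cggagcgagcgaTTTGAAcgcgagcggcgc
BUB1B: gggaccgttaaaTTTGAAacttggcggcta
INCENP: ggATTGGctgagccttcagtTTTGAAaatc
ZW10: gaagcaacgaacTTTGAAaacaactaagga

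A CHR was present in 20 of 39 member promoters (51.3%), against 16.4% of 35116 promoters of the same length and 11.3% of the 11480 promoters of tested genes. A CCAAT box was present in 26 of 39 (66.7%, against 34.6% of all promoters and 36.4% of those of tested genes), and both elements in 16 (41.0%, against 6.38% and 4.8%). The E2F letters TTTCCCGC, TTTCGCGC, TTTGGCGC or TTTGGCGG were in 4 (10.3%, against 3.35% of all promoters and 5.4% of those of tested genes), and the TATA box letters TATAAA were in 0 of 39 (against 11.5% and 5.92%). These shares are descriptions of short letter matches and not of bound sites. Members with and without a CHR had median log2 fold changes between knockdown and control of -0.22 and -0.30. With and without a CCAAT box the medians were -0.32 and -0.21. Over the promoters of tested genes the medians were 0 with and 0.01 without, for the CHR and for the CCAAT box alike. Whether either element bears on the fold changes was not tested.

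STAU1 itself was checked first. Its level was 120, 125 and 117 CPM (counts scaled to library size with TMM factors) in the controls and 16, 15.7 and 14.6 in the knockdown libraries, a 7.83-fold difference. Libraries held between 30354219 and 35431441 counts, and mitochondrially encoded genes took 17.3 to 17.9% of counts in controls and 15.8 to 16.1% in knockdown libraries. A549 and epithelial markers were abundant: the summed level of 9 genes was 26400 to 26900 CPM in controls and 23400 to 23800 CPM in knockdown libraries, with 5 lower (KRT7, KRT8, KRT18, AKR1B10 and AKR1C1), 3 higher (EPCAM, CDH1 and ALDH1A1) and KRT19 not called. Of the genes lost from the A549 genome, CDKN2B had a highest count of 1, and CDKN2A was not analysed here. Markers of other cell types (11 genes, 8 of them with any count) summed to 2.99 to 3.51 CPM in controls and 4.16 to 4.70 CPM in knockdown libraries. Of the 4 with enough counts, the endothelial cadherin CDH5 rose by 1.03 on the log2 scale. The part of mitochondrial share and of these markers in the results below was not tested.

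Most of the 48 genes were lower in the knockdown libraries, by small amounts. A gene was called at a Benjamini-Hochberg adjusted p under 0.05 from edgeR's quasi-likelihood test, adjusted over all tested genes. By this rule 40 members fell, 2 rose (ZW10 and MAD1L1) and 6 were not called. Over all 17089 tested genes 21.9% were lower and 22.2% higher (44.1% in either direction), so a call by itself was common in these libraries. Of the 13701 protein-coding genes tested, 3428 (25%) were lower and 3500 higher. Neither background was matched to the members' level of expression. The median log2 fold change was -0.25 over the members and 0 over all tested genes. Among the 40 that fell, the fold ranged from 1.08 to 1.53 with a median of 1.23, and only CENPM and CDC20 were at least 1.5-fold lower. Knockdown libraries lay entirely below the controls for 40 members and entirely above for 2, and the groups overlapped for 6. Over all tested genes 25.5% lay entirely below and 25.8% entirely above.

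These counts depended on the processing. Without TMM, with total counts alone in edgeR, 30 members fell and 3 rose. On the log2(FPKM + 1) and log2(FPKM + 0.1) scales 22 fell and 2 rose. Those 2 settings also changed the test to limma-trend and used another filter, so the part of scaling alone in them cannot be told. Of all calls 50.3% were higher with TMM, 69.5% with total counts and 76.9% and 77.1% on the FPKM scales. The members' median was -0.25 relative to the median of all genes with TMM and with total counts, and -0.17 and -0.23 on the FPKM scales.

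**Figure D1:**
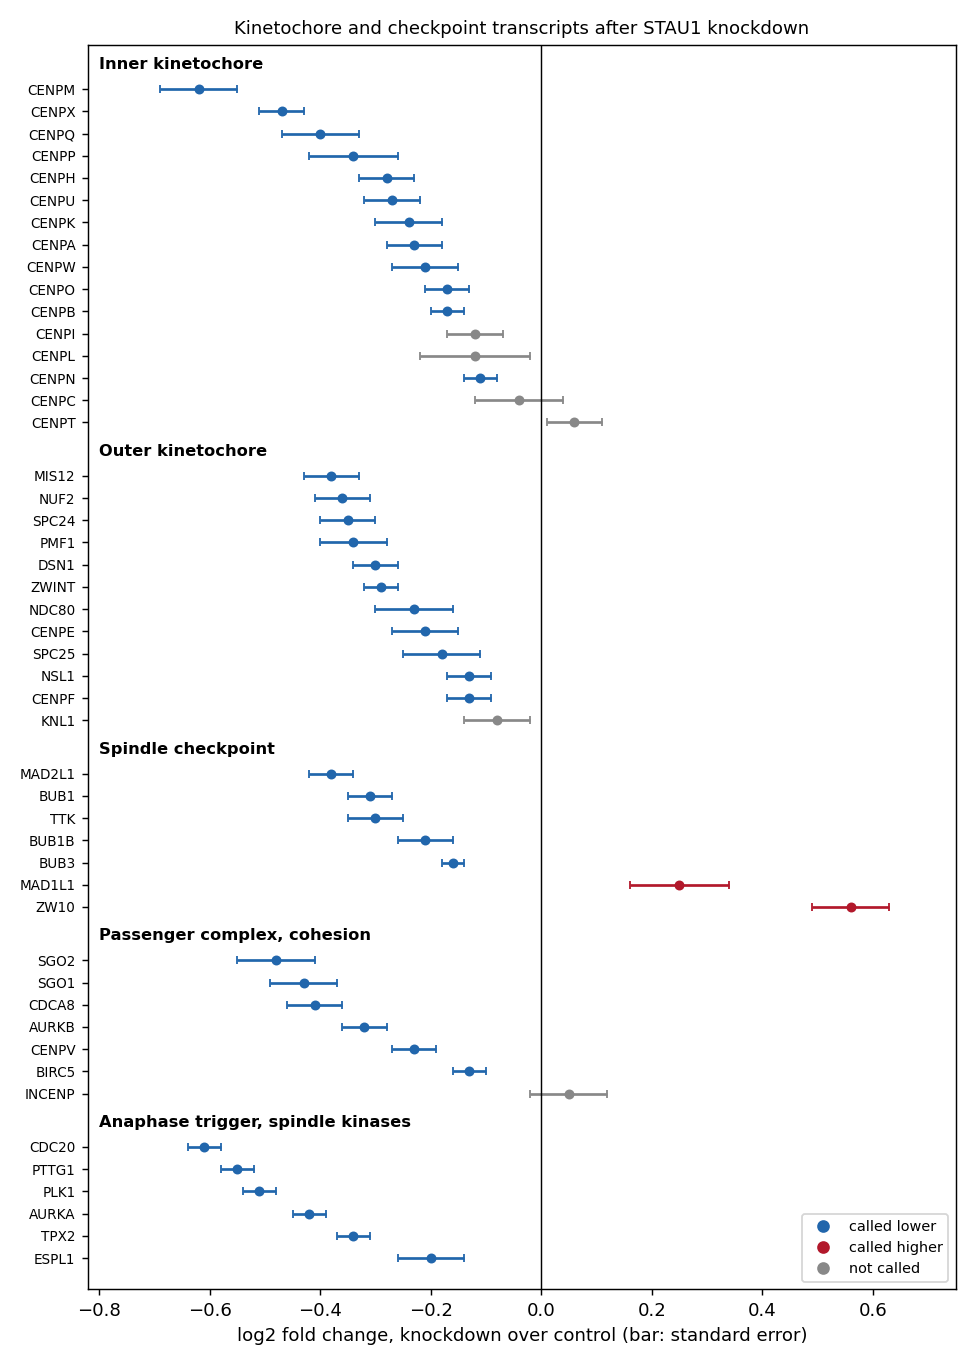
Log2 fold change (knockdown minus control, with bars of 1 standard error) for each of the 48 genes, grouped by class and sorted within it. Points range from -0.62 for CENPM to 0.56 for ZW10, and colour marks genes called lower (blue), called higher (red) and not called (grey).

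The shift was similar in each knockdown library. Relative to the mean of the controls, the median log2 difference over the 48 genes was -0.27, -0.24 and -0.27 in knockdown replicates 1 to 3 and between 0 and 0.01 in the controls. Summed over the 48 genes the level was 2250, 2220 and 2240 CPM in controls and 1840, 1870 and 1830 CPM in knockdown libraries.

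**Figure D2:**
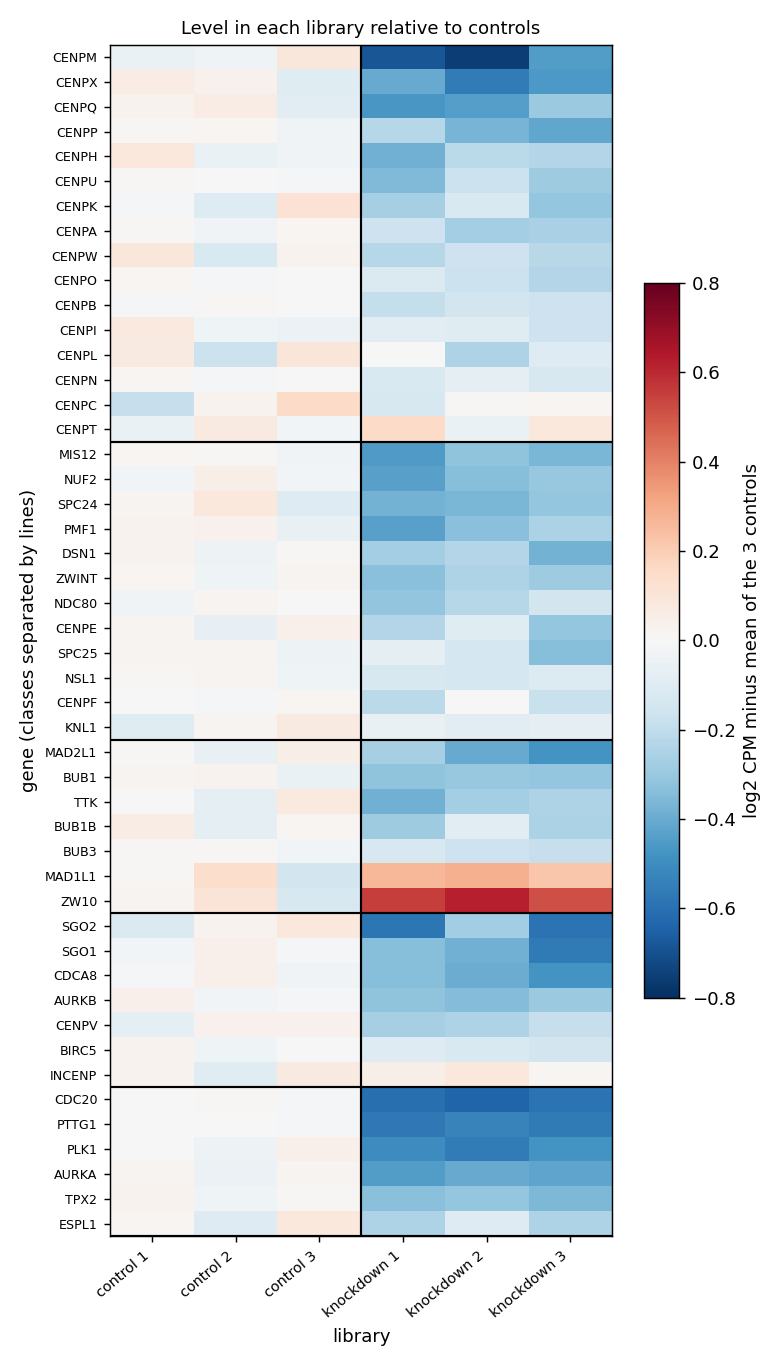
Level of each of the 48 genes in each library as log2 CPM minus the mean of the 3 controls, with blue below and red above and black lines between classes and groups. The knockdown columns are blue for most genes and red for ZW10 and MAD1L1.

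In the inner layer 12 of 16 genes fell and 0 rose, and the median log2 fold change was -0.22. CENPC, CENPI, CENPL and CENPT were not called. On either FPKM scale 5 fell, and the calls of CENPB, CENPH, CENPK, CENPO, CENPP, CENPW and CENPN were lost. CENPM, a subunit of the CENP-H/I/K/M complex (ENSG00000100162.15, chromosome 22, 41938721 to 41947164, minus strand, in GRCh38 after GENCODE 29), stood at 16.4, 16.6 and 18.1 CPM in controls and 10.6, 10.1 and 12.5 CPM in knockdown libraries. The groups did not overlap, and its log2 fold change of -0.62 (SE 0.07) was the furthest from 0 among the members. CENPX, a histone-fold protein of the CENP-T/W/S/X complex (ENSG00000169689.15), stood at 59.3, 58.2 and 53.2 CPM in controls and 42.9, 38.6 and 41.4 CPM after knockdown (log2 fold change -0.47, SE 0.04). Every knockdown library was again below every control, and the printed CENPX promoter holds 1 of its 5 ATTGG matches. CENPB, which binds the CENP-B box of alpha satellite DNA (ENSG00000125817.8), went from 154, 156 and 155 CPM to 136, 140 and 138 CPM (-0.17, SE 0.03). The change was small, and the libraries of each group lay close together. For these 3 genes edgeR's adjusted p was between 7.6e-11 and 9.2e-07.

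CENPC, the scaffold that links CENP-A nucleosomes to the outer layer (ENSG00000145241.11), stood at 8.48, 9.84 and 10.7 CPM in controls and 8.83, 9.68 and 9.74 CPM in knockdown libraries. Here the groups overlapped and the difference was -0.04 (SE 0.08), with a sign that changed between settings. CENPA, the centromeric histone itself, changed by -0.23 (SE 0.05), from 34, 33.1 and 34.2 CPM to 30.1, 28 and 28.2 CPM. All 4 genes of the CENP-O/P/Q/U group fell, with a median of -0.30: CENPQ by 0.40, CENPP by 0.34, CENPU by 0.27 and CENPO by 0.17. CENPP shares 38.0% of its exonic bases with IPPK, and CENPO shares 27.0% with ADCY3, both on the opposite strand. Beside CENPM, the CENP-H/I/K/M genes CENPH and CENPK fell by 0.28 and 0.24, and CENPI had a difference of -0.12 and an adjusted p of 0.061 from edgeR, and was called lower with length and GC offsets (-0.17, adjusted p = 0.0076). CENPN fell by 0.11, a change that vanished with total counts (-0.03) and on both FPKM scales, and its partner CENPL had a difference of -0.12 with overlapping groups. In the complex of CENPX, CENPW fell by 0.21, a call lost without control replicate 1 (-0.16, adjusted p = 0.07 from edgeR) and with length and GC offsets (-0.12, adjusted p = 0.12). CENPT had a difference of 0.06, and with total counts it was called higher (0.14, adjusted p = 0.031 from edgeR).

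In the outer layer 11 of 12 genes fell, 0 rose and the median was -0.26, with KNL1 not called. With total counts and on both FPKM scales 6 of them fell, and the calls of NDC80, SPC25, NSL1, CENPE and CENPF were lost. Without the corona genes CENPE and CENPF, which also act outside the core layer, 9 of 10 fell and the median was -0.29. ZWINT, which helps bring the RZZ complex to kinetochores (ENSG00000122952.17), stood at 87.7, 84.8 and 88.1 CPM in controls and 69, 73.3 and 71.2 CPM in knockdown libraries (-0.29, SE 0.03). MIS12, which names the complex that bridges the inner and outer layers (ENSG00000167842.16), went from 29.2, 29.1 and 28.3 CPM to 21.1, 23.1 and 22.4 CPM (-0.38, SE 0.05). NUF2, the partner of NDC80 at the microtubule-binding end (ENSG00000143228.13), went from 31.7, 33.3 and 31.7 CPM to 23.8, 25.4 and 26.1 CPM (-0.36, SE 0.05). None of these genes had overlapping groups, and their adjusted p from edgeR lay between 2.3e-09 and 1.3e-07.

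KNL1, the scaffold that binds BUB proteins (ENSG00000137812.20), stood at 16.3, 17.7 and 18.3 CPM in controls and 16.7, 16.4 and 16.6 CPM in knockdown libraries. The knockdown values lay within the control range, and the difference was -0.08 (SE 0.06). With length and GC offsets KNL1 was called lower (-0.19, adjusted p = 0.008 from edgeR). All 4 genes of the NDC80 complex fell, with SPC24 at -0.35, NDC80 at -0.23 and SPC25 at -0.18 beside NUF2. All 4 genes of the MIS12 complex fell as well, with PMF1 at -0.34, DSN1 at -0.30 and NSL1 at -0.13. PMF1 shares 23.3% of its exonic bases with the readthrough gene PMF1-BGLAP on the same strand. Among the corona genes, the kinesin CENPE fell by 0.21 and CENPF by 0.13. CENPF was the only gene called lower whose groups overlapped: it stood at 79.8, 79.3 and 80.9 CPM in controls and 68.9, 79.7 and 70.8 CPM in knockdown libraries. Its call was lost without control replicate 1 (-0.13, adjusted p = 0.058), control replicate 3 (-0.12, 0.084) or knockdown replicate 1 (-0.09, 0.072), by edgeR. SPC25 lost its call without control replicate 1 (adjusted p = 0.088), control replicate 2 (0.083) or knockdown replicate 3 (0.25) in the same test, and CENPE without knockdown replicate 3 (0.05).

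In FPKM, which scales counts by gene length so that genes can be compared, the subunits of one complex differed in level. The NDC80 complex genes stood in controls at 7.83 FPKM for NUF2, 7.62 for SPC24, 6.94 for SPC25 and 3.21 for NDC80, with SDs of 0.187, 0.457, 0.157 and 0.0529 over 3 libraries. NUF2 and SPC24 had overlapping control values, and NDC80 was below the other 3 in every control. In the MIS12 complex DSN1 was at 11.3, MIS12 at 7.45, PMF1 at 7.19 and NSL1 at 2.51 FPKM. In CPM, which is not scaled by length, NSL1 was the highest of these 4 at 42.6, against 37.8 for DSN1, although its longest GENCODE 29 transcript (2317 nt) is no longer than that of DSN1 (2447 nt). The place of NSL1 in the FPKM order therefore rests on the gene length the authors used, which is not stated in the sources used here. Over all 48 members the control mean ran from 0.777 FPKM, the value of both CENPP and MAD1L1, to 44.0 FPKM for PTTG1, with a median of 7.07. PTTG1 (44.0) and CENPB (43.8) did not differ beyond the spread of their control libraries.

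**Figure D3:**
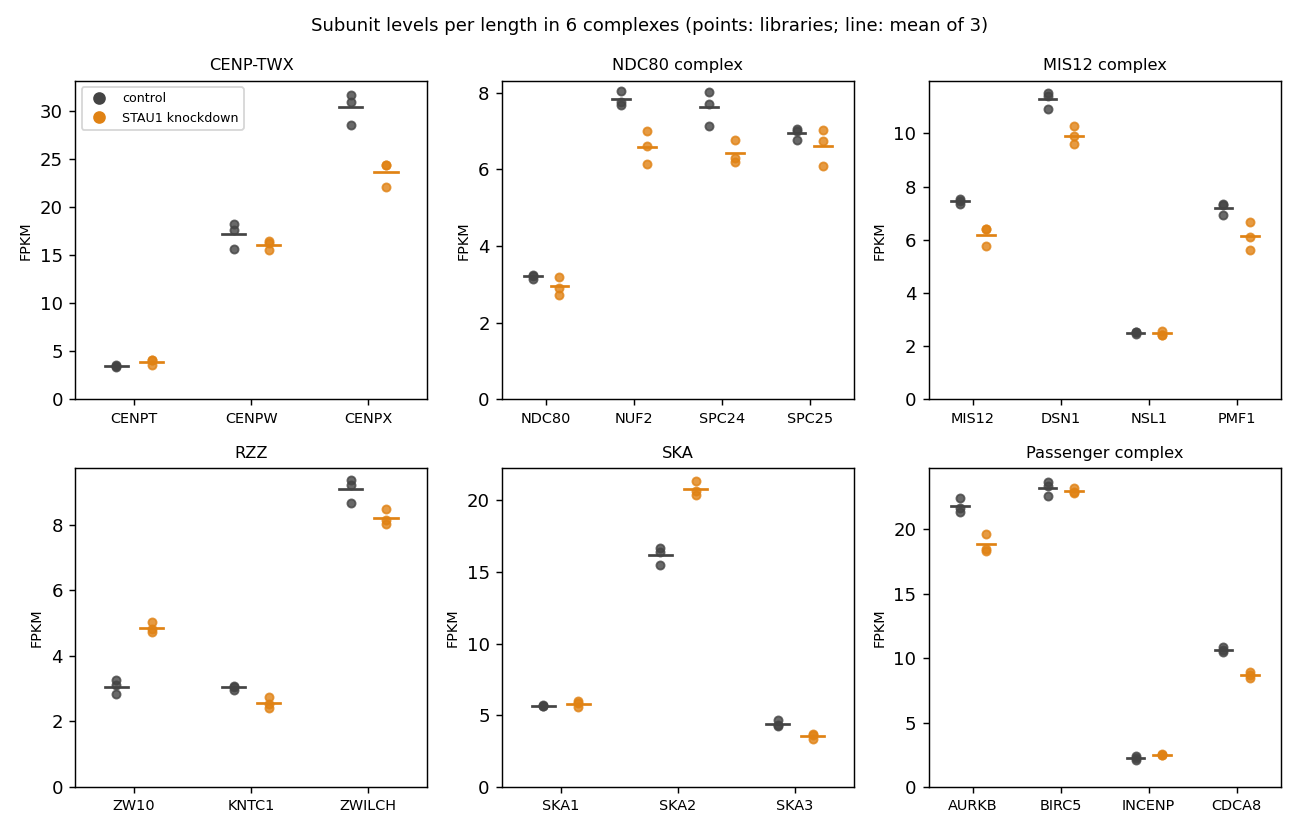
FPKM (linear axes from 0) of the subunits of 6 complexes, with 1 point per library (grey for control, orange for knockdown) and a line at the mean of 3. Subunits of one complex lie at different levels, as with NDC80 at 3.21 and NUF2 at 7.83 FPKM in controls, and the knockdown points of ZW10 and SKA2 lie above their controls.

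The 7 spindle checkpoint genes split, with 5 that fell, 2 that rose and a median of -0.21. MAD2L1, the conformational switch protein MAD2 (ENSG00000164109.14), stood at 57.7, 54.9 and 59.1 CPM in controls and 47.5, 43.3 and 41.1 CPM in knockdown libraries (-0.38, SE 0.04). BUB1, the kinase that marks centromeric histone H2A (ENSG00000169679.15), went from 51, 51.2 and 48.4 CPM to 40.1, 40.7 and 40.5 CPM (-0.31, SE 0.04). BUB3, the adaptor that brings BUB1 and BUBR1 to KNL1 (ENSG00000154473.18), was the most abundant of the 7 in CPM, at 182, 182 and 178 CPM in controls and 165, 161 and 159 CPM in knockdown libraries (-0.16, SE 0.02). For each of these the knockdown libraries lay below all controls. TTK, the MPS1 kinase that starts checkpoint signalling, fell by 0.30, and BUB1B, which encodes BUBR1, by 0.21. On the FPKM scales 2 of the 7 fell, and the calls of BUB1B, BUB3 and TTK were lost.

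ZW10, a subunit of the RZZ complex that brings dynein and the MAD1-MAD2 complex to kinetochores (ENSG00000086827.9, chromosome 11, 113733187 to 113773811, minus strand), moved the other way. Its level was 11.1, 11.7 and 10 CPM in controls and 16, 16.8 and 15.6 CPM in knockdown libraries, so all knockdown values were above all controls. The rise was 1.47-fold (log2 fold change 0.56, SE 0.07, adjusted p = 2.1e-08 from edgeR), and it lay between 0.50 and 0.65 over the 19 alternative settings. ZW10 had no exon overlap with another gene in GENCODE 29. Its RZZ partners, which are not among the 48 genes and were chosen after their values were seen, fell: KNTC1 by 0.36 (SE 0.05) and ZWILCH by 0.26 (SE 0.04).

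MAD1L1, which anchors MAD2 at unattached kinetochores (ENSG00000002822.16, chromosome 7, 1815793 to 2233243, minus strand), stood at 6.67, 7.29 and 5.97 CPM in controls and 7.96, 8.05 and 7.72 CPM in knockdown libraries. The groups did not overlap, with a rise of 0.25 (SE 0.09, adjusted p = 0.023 from edgeR). It rested on 190 to 279 counts per library. This call was lost with DESeq2 (adjusted p = 0.096) and, with edgeR, without control replicate 1 (0.26, adjusted p = 0.051), control replicate 3 (0.18, 0.15) or knockdown replicate 2 (0.24, 0.058).

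Among genes of the passenger complex and centromeric cohesion 6 of 7 fell, 0 rose and the median was -0.32, with INCENP not called. AURKB, the kinase of the passenger complex that corrects wrong attachments (ENSG00000178999.13), stood at 61.5, 58.8 and 59.2 CPM in controls and 47.9, 47 and 48.8 CPM in knockdown libraries (-0.32, SE 0.04). CDCA8, its borealin subunit (ENSG00000134690.11), went from 31.2, 32.2 and 30.7 CPM to 24.8, 23.8 and 22.5 CPM (-0.41, SE 0.05). SGO1, the shugoshin that protects centromeric cohesin (ENSG00000129810.15), went from 17.2, 18 and 17.3 CPM to 13.8, 13.4 and 11.8 CPM (-0.43, SE 0.06). All 3 had knockdown values below every control. INCENP, the scaffold of the passenger complex (ENSG00000149503.13), stood at 12.4, 11.4 and 12.8 CPM in controls and 12.6, 12.9 and 12.3 CPM in knockdown libraries, overlapping groups with a difference of 0.05 (SE 0.07). Survivin (BIRC5), the remaining passenger subunit, fell by 0.13, a call lost with total counts and on the FPKM scales. SGO2, the second shugoshin, fell by 0.48, and CENPV by 0.23, a call lost on the FPKM scales.

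All 6 genes of anaphase onset and spindle assembly fell, with a median of -0.47, the lowest of the 5 class medians. CDC20, which activates the anaphase-promoting complex and is the target of the checkpoint (ENSG00000117399.14, chromosome 1, 43358955 to 43363203, plus strand), stood at 95.2, 95.4 and 94 CPM in controls and 62.4, 60.8 and 63 CPM in knockdown libraries. That is 1.53-fold lower (-0.61, SE 0.03, adjusted p = 7e-18 from edgeR), the smallest adjusted p among the members. PTTG1, securin, the inhibitor of separase (ENSG00000164611.13), went from 107, 107 and 106 CPM to 71.7, 73.5 and 72.1 CPM (-0.55, SE 0.03), although near-identical copies may share its reads. PLK1, the mitotic kinase (ENSG00000166851.15), went from 106, 103 and 109 CPM to 74.9, 71.9 and 76.1 CPM (-0.51, SE 0.03). Groups were far apart for these 3 genes. ESPL1, separase (ENSG00000135476.12), stood at 19.3, 17.8 and 20.3 CPM in controls and 16.1, 17.8 and 16.1 CPM in knockdown libraries, with the highest knockdown value next to the lowest control (-0.20, SE 0.06). Its call was lost without control replicate 3 (-0.16, adjusted p = 0.065 from edgeR), with total counts and on the FPKM scales. The spindle kinase AURKA fell by 0.42 and its activator TPX2 by 0.34.

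The classes were set side by side without a test, since genes of a class are not replicates. In knockdown replicates 1 to 3, the median log2 difference from the control mean was -0.21, -0.17 and -0.24 for the inner layer, -0.30, -0.23 and -0.29 for the outer layer and -0.27, -0.16 and -0.25 for the checkpoint. For the passenger and cohesion genes it was -0.32, -0.28 and -0.29, and for the anaphase and spindle genes -0.47, -0.47 and -0.45. The outer layer median was lower than the inner layer median in all 3 libraries, and whether the layers differ was not tested. Log2 fold changes of single genes ranged from -0.62 to 0.06 for the inner layer, -0.38 to -0.08 for the outer layer and -0.38 to 0.56 for the checkpoint. The genes not called were 4 of 16, 1 of 12 and 0 of 7 in these classes.

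**Figure D4:**
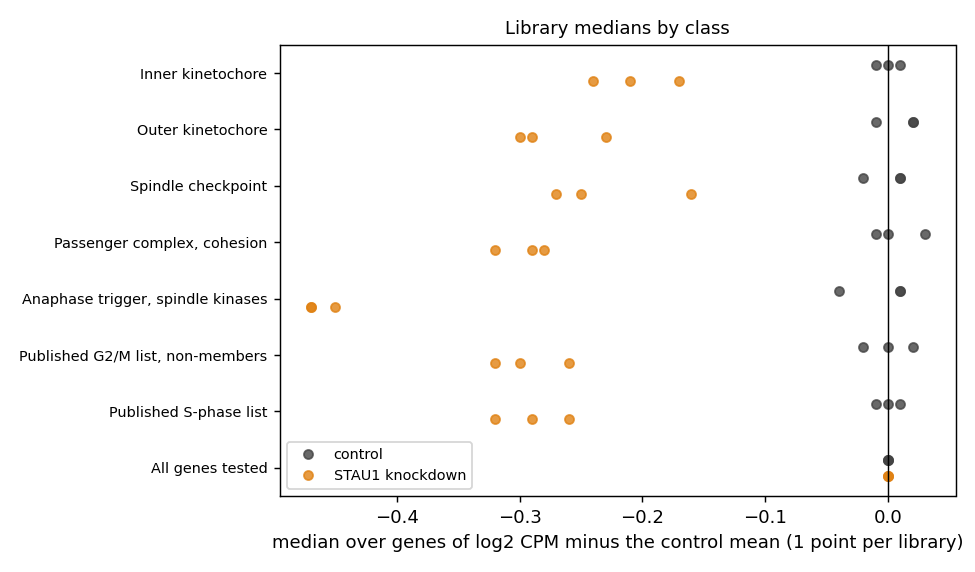
Median over genes of log2 CPM minus the control mean, with 1 point per library (grey for control, orange for knockdown), for each class, the phase lists (the S-phase list with its 1 member, CENPU) and all tested genes. The anaphase and spindle genes lie lowest, at -0.47, -0.47 and -0.45, and the inner layer, outer layer and checkpoint lie between -0.30 and -0.16 in the knockdown libraries.

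Genes of the cell cycle outside the 48 moved by similar amounts. In a widely used list of G2/M genes 13 were members, of which 13 fell (median -0.31), and the 35 members outside that list had 27 lower, 2 higher and 6 not called (median -0.23). Of the 41 G2/M genes that are not members 36 fell and 1 rose (HMGB2, named after its value was seen; median -0.31), and of the 42 genes of the matching S-phase list that are not members 38 fell (median -0.29). No difference between these lists and the members, whose median was -0.25, was tested. The phase lists moved with the counts of members given above, and their part in them was not tested.

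Lists of related machinery, drawn up with earlier results of these data known, were read from the same test. HJURP, KIF2C, NEK2, UBE2C, SMC4 and NCAPD2 are also in the G2/M list above, so these lists are not separate from it. In the list of kinetochore assembly and checkpoint partners 17 of 22 fell and 1 rose, with a median of -0.30, and CENPS, SKA1, MAD2L1BP and BORA were not called. HJURP, the chaperone that deposits CENP-A, went from 101, 100 and 97.7 CPM to 77.6, 79.4 and 76 CPM (-0.36, SE 0.03). KIF2C, the microtubule depolymerase MCAK, went from 35.2, 33.1 and 34.8 CPM to 23.8, 26.5 and 24.2 CPM (-0.47, SE 0.05). SKA2, of the complex that holds microtubules with NDC80, rose from 65.9, 61.7 and 64.5 CPM to 76.1, 76.3 and 76.5 CPM (0.25, SE 0.03), while its partners, chosen after their values were seen, were at -0.43 (SKA3, called) and -0.08 (SKA1, not called). The SKA and RZZ complexes each held 1 gene that rose beside at least 1 that fell.

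Of 19 genes of the anaphase-promoting complex and its enzymes 9 fell (median -0.13), 3 rose (ANAPC13, ANAPC15 and UBE2D1) and 7 were not called, with the ubiquitin-conjugating enzymes UBE2C at -0.47 (SE 0.03) and UBE2S at -0.40 (SE 0.03). Of 21 cohesin and condensin genes 12 fell (median -0.16), 1 rose (PDS5B) and 8 were not called, with the cohesin subunit SMC1A at -0.27 (SE 0.03) and the condensin subunit SMC4 at -0.28 (SE 0.03). Of 20 regulators of mitotic transcription 9 fell (median -0.11), 2 rose (RBBP4 and TFDP2) and 9 were not called. Among them were NFYC, a subunit of the CCAAT-binding factor, at -0.42 (SE 0.04) and E2F5 at -0.36 (SE 0.04). FOXM1, a forkhead activator of G2/M genes, was at -0.22 (SE 0.03). Of the other NFY genes in this list, NFYA was at -0.07 (not called) and NFYB at -0.10 (called lower). MYBL2 was at -0.03 and LIN54 at -0.02, both not called. FOXM1, NFYA, NFYB, MYBL2, LIN54 and the genes named as higher were chosen after their values were seen. The share that fell was 47.4%, 57.1% and 45% in these lists and 83.3% among the 48 members, and that difference was not tested.

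The 48 genes lie on 19 chromosomes, with 7 on chromosome 1. In GENCODE 29, 18 of them share exonic bases with another gene, 15 on the opposite strand and 3 on the same strand, and 8 have a named pseudogene copy. Whether counting used strand is not stated in the sources used here, so reads of such partners may not be separated.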

How the data were processed

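Poly(A) RNA of 3 control and 3 STAU1 knockdown libraries was sequenced as directional paired-end libraries, per the labels' protocols. The authors deposited whole-number read counts per gene and, for the same libraries, FPKM values. The submitters' processing notes name GRCh38, HISAT2 and DESeq2. The tool, annotation release and strand setting behind the counts are not stated in the sources used here. Columns were assigned by sample title. Each library held 30354219 to 35431441 counts. No pair of replicates agreed within sampling noise (chi-square per degree of freedom 1.78 to 2.88), and each was counted on its own.

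Genes passing edgeR's filterByExpr (minimum count 10; 17089 genes) were TMM-scaled and tested in R 4.3.3 with edgeR 4.0.16 and limma 3.58.1, using robust quasi-likelihood fits, Benjamini-Hochberg adjustment over all of them, and calls at an adjusted p under 0.05. This version of edgeR offers a current and a legacy fit. The current one was taken as the main fit after the counts of both had been seen, and calls of all 48 members were the same in both. A standard error is the absolute log2 fold change divided by the root of its F statistic. Alternatives were 3 other scalings, 2 filters, limma-voom, DESeq2 1.42.0, log2(FPKM + 1) and log2(FPKM + 0.1) values in limma-trend, a replicate block, leaving out each library, and, added after the data were seen, length and GC offsets and the legacy fit. The script was tested on simulated counts. Of 30493 identifiers 29556 matched GENCODE 29 (96.9%), 12021 with the same version.

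Members, classes and lists were chosen with earlier results of these data known. The phase lists were written from knowledge of a published list. Values in every library are given for the 3 members of each class with the smallest adjusted p, the member of each class nearest 0 and every member called higher, and for any other gene where a result turned on it. From each related list the 2 genes with the smallest adjusted p were named, and any kinetochore assembly gene called higher. Promoter stretches were chosen for display after the motif matches were seen.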

Additional observations from a re-analysis of the deposited data

How the results depend on the processing

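Of the 40 members called lower and 2 called higher, 23 kept their call and direction in all 19 alternatives. Total-count scaling gave 2398 genes lower and 5455 higher, a members' median of -0.18, inner and outer layer medians of -0.14 and -0.18, a checkpoint median of -0.13 and 6 outer layer genes lower. It lost the calls of CENPN, CENPO, CENPW, NDC80, SPC25, NSL1, CENPE, CENPF, BIRC5 and ESPL1, and called CENPT higher. With log2(FPKM + 1), 1490 genes were lower and 4953 higher, 22 members, 5 inner, 6 outer and 2 checkpoint genes fell, and the medians were -0.12, -0.09, -0.13 and -0.09. With log2(FPKM + 0.1), 1469 were lower and 4945 higher, the member counts were again 22, 5, 6 and 2, and the medians were -0.14, -0.11, -0.15 and -0.10. DESeq2 called 1 member higher. With length and GC offsets the medians of members, outer layer and checkpoint were -0.28, -0.29 and -0.28, CENPI and KNL1 were called lower, and CENPW lost its call. Signs reversed for CENPC (0.04 with total counts and with log2(FPKM + 1), 0.07 with log2(FPKM + 0.1), 0.04 without control replicate 3, 0.0061 without knockdown replicate 1), for CENPN (0.0034 and 0.0036) and KNL1 (0.02 and 0.03) on the 2 FPKM scales, and for INCENP (-0.0024 without control replicate 2, the lowest of the values with 1 library left out, the highest being 0.08). The cause was not tested. Leaving out 1 library gave 37 to 40 members lower, 1 to 2 higher, a median of -0.30 to -0.23, inner layer counts of 11 to 12 and medians of -0.26 to -0.18, outer layer 9 to 11 and -0.29 to -0.25, and checkpoint 5 and -0.27 to -0.17. To look for pairing, the mean log2 CPM of each gene in its group was subtracted, and the remainders of control and knockdown libraries were correlated. The remainders of libraries with the same replicate number correlated at 0.068, 0.037 and 0.146, and those with different numbers at -0.11 to 0.046. By these remainders each knockdown library correlated best with the control of its own number. Control replicate 2, in turn, correlated best with knockdown replicate 1 (0.046). Whether libraries were paired by number cannot be told from values this weak. With the replicate number as a block 40 members fell and 2 rose, 3831 genes were lower and 3811 higher, and with the offsets and the replicate block together the medians were -0.28, -0.29 and -0.28. Every member had at least 190 counts in every library. In simulated counts at the depth of these libraries, 56% of planted changes of 0.25 on the log2 scale were called. Recovery was 92% at 0.5 and 100% at 1. The planted genes were not matched to the members' counts, so these shares are not recovery rates for members. The differences of the members not called were -0.04 (SE 0.08) for CENPC, -0.12 (SE 0.05) for CENPI and -0.12 (SE 0.1) for CENPL. For CENPT, KNL1 and INCENP they were 0.06 (SE 0.05), -0.08 (SE 0.06) and 0.05 (SE 0.07). A member not called may still differ by a small amount. Depth itself was not varied.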

Other observations

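NUSAP1, a spindle-associated gene of the G2/M list, was chosen after its values were seen. It held only 6, 8 and 8 counts in controls and 12, 11 and 12 in knockdown libraries, against at least 190 counts in every library for each of the 48 members. The counting tool and annotation release are not stated in the sources used here. Whether NUSAP1 was weakly expressed or its reads were not assigned to it therefore cannot be told.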
